A study of Homo sapiens with 12 samples.

Results

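The response of 2 human ovarian cancer cell lines to the kinase inhibitor lestaurtinib was compared gene by gene, as the log2 change in OVSAHO minus the log2 change in MDAH-2774. Of 13869 genes in the deposited table, 13498 were tested, and the 9898 with a mean of at least 5 CPM (counts scaled to library sizes after TMM normalization) over the 6 libraries of each line are described here. This limit kept out genes that were near 0 in 1 line. It used the mean of vehicle and treated libraries together, so a gene low in 1 treatment could pass through the other. In the line with the lower level, ZNF551 (5.0023 CPM) and CLDN7 (5.0024 CPM) lay just above it, and MORN2 (4.9961 CPM) and DET1 (4.9929 CPM) just below it. Among the 9898 genes, 9689 also had a mean of at least 5 CPM in each of the 4 groups, and with that limit 1864 differences were called.

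Each group had 3 RNA sequencing libraries, and treatment lasted 24 h, with lestaurtinib at 500 nM or DMSO as the vehicle. MDAH-2774 is labelled as endometrioid and OVSAHO as high grade serous ovarian cancer, both with wild-type genotype, and all cells were in phenol red free RPMI with 10% FBS and plated at 70% confluence. Each condition rests on a single line per tumour type, so tumour type and line cannot be told apart. The question put to the series was which genes the compound regulates, and the difference asked here is which of those responses depend on the line. Whether the libraries of a group are separate cultures is not said in the labels. The p-values therefore measure library-to-library spread, which may be technical.

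Library totals lay between 32875940 and 55941446 counts. The gene with the most counts in every library was EEF1A1, at 1.66 to 1.96% in MDAH-2774 and 4.86 to 6.24% in OVSAHO. The ovarian lineage factor PAX8 had 77.1 RPKM in vehicle MDAH-2774 and 62.3 RPKM in vehicle OVSAHO cells, and the epithelial keratin KRT8 had 449 and 338 RPKM. Other ovarian and epithelial markers differed between the lines. In the same order, KRT19 had 216 and 3.32, FOLR1 0 and 110, WT1 6.70 and 24.9, and CDH1 1.29 and 5.82 RPKM. The mesenchymal markers VIM and FN1 had 377 and 249, and 26.1 and 0.39 RPKM. MUC16 was not in the table. Of 21 genes marking fibroblasts, endothelium or blood cells, 4 were in the table. Their summed level was 15.3 to 17.7 RPKM in vehicle and 10.4 to 12.01 RPKM in treated MDAH-2774 libraries. In OVSAHO it was 7.37 to 8.51 RPKM in vehicle and 4.86 to 6.67 RPKM in treated libraries. In vehicle libraries most of it was the macrophage-linked CD68, and without that gene the sum of COL1A1, ACTA2 and CDH5 was 1.39 to 2.40 RPKM in vehicle and 4.97 to 5.94 RPKM in treated MDAH-2774 libraries. In OVSAHO that sum was 0.149 to 0.723 RPKM in vehicle and 0.452 to 0.803 RPKM in treated libraries, which overlapped. The endothelial cadherin gene CDH5 rose in both lines, from a mean of 0.41 to 3.36 RPKM in MDAH-2774 (log2 change 2.99 ± 0.45, edgeR adjusted p = 1.89e-04) and from 0.029 to 0.35 RPKM in OVSAHO (3.69 ± 0.60, adjusted p = 3.87e-04). The part of other cells in the results was not tested. In bulk RNA, fewer cells of a kind and less RNA per cell cannot be told apart.

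Lestaurtinib is a staurosporine-like (indolocarbazole) compound that occupies the ATP site of several kinases, among them FLT3, JAK2 and the neurotrophin receptors. Kinases of this kind pass signals from cytokine and growth factor receptors to transcription factors such as STATs, NF-kB, AP-1 and SRF, and the output depends on which receptors and factors a cell already uses. A difference of responses, or interaction, is above 0 when a gene went further up or less far down in OVSAHO than in MDAH-2774, and it is independent of a constant gap between the lines.

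The same dose moved many genes differently in the 2 lines. Of 527 genes with a called response in both lines, 308 moved the same way and 219 opposite ways. Whether these counts differ from those of unrelated lists was not tested. With edgeR's quasi-likelihood test and Benjamini-Hochberg adjustment over all genes tested, the response differed at an adjusted p under 0.05 for 1910 of the 9898 genes (19.3%). In 1125 (11.4%) the difference was higher in OVSAHO and in 785 (7.93%) it was lower. Upper quartile scaling, which moved the median difference by -0.07, split the calls as 788 higher and 1108 lower, so the balance of directions depends on the scaling. A difference of at least 1 on the log2 scale was called for 185 genes (1.87%), 109 higher and 76 lower. By comparison, 358 of the 3600 genes below the 5 CPM limit were called (9.94%).

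Within MDAH-2774 itself, 1992 of the 9898 genes responded (20.1%), 865 upwards (8.74%) and 1127 downwards (11.4%). Within OVSAHO, 1747 responded (17.7%), 1066 upwards (10.8%) and 681 downwards (6.88%). The lists shared 527 genes, which are 26.5% of the MDAH-2774 calls and 30.2% of the OVSAHO calls. Of these, 160 rose in both lines and 148 fell in both. The other 219 (41.6%) went opposite ways, 158 falling in MDAH-2774 and rising in OVSAHO and 61 the reverse. That number was 139 without treated MDAH-2774 replicate 1 and also 139 without replicate 2, with 1295 and 1262 genes then responding in MDAH-2774. Across the 9898 genes, the log2 changes of the lines, which share no library, had a Pearson r of 0.088 and a Spearman rho of 0.043. Genes within a sample are not independent replicates, so these values are descriptions.

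**Figure D1:**
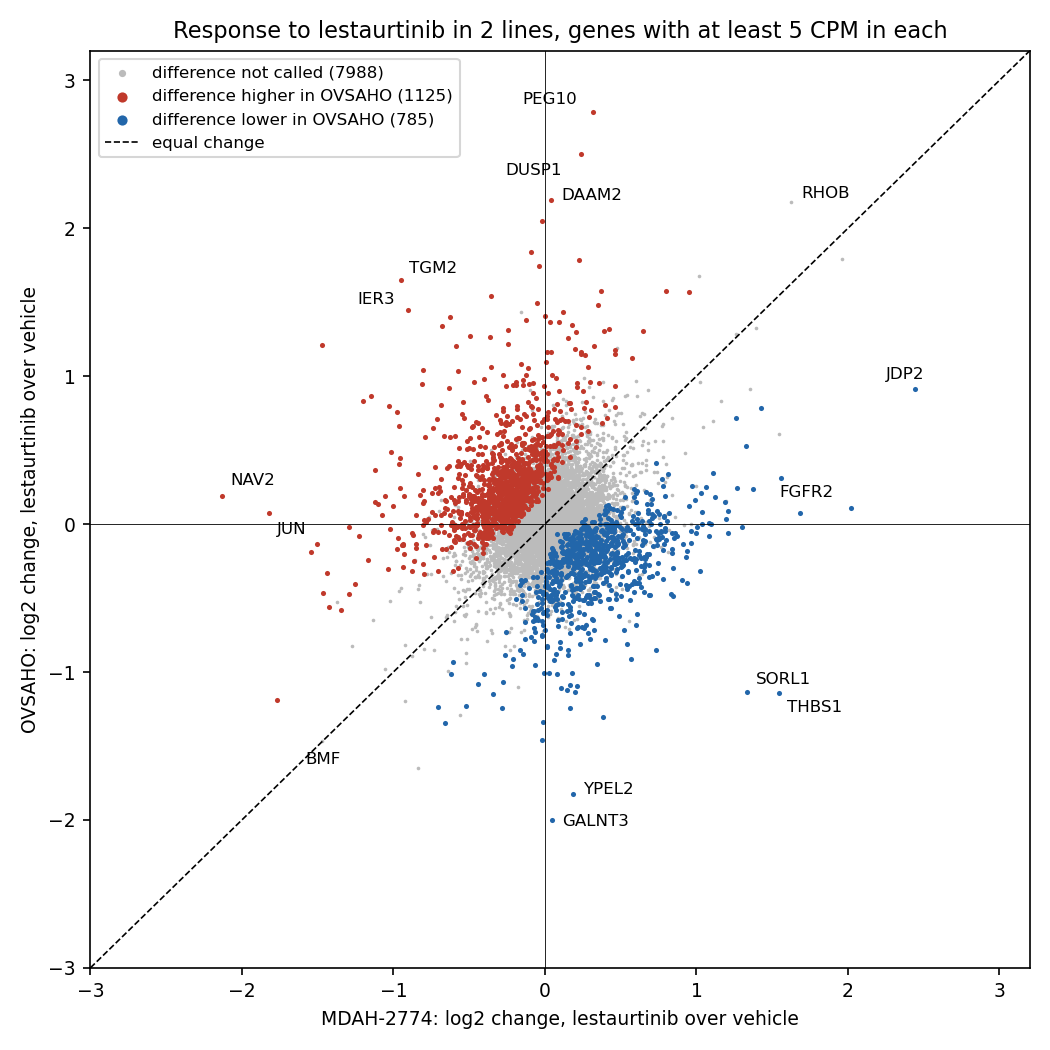
Log2 change with lestaurtinib in MDAH-2774 (x axis) and in OVSAHO (y axis) for 9898 genes, with 1125 genes whose difference was called higher in OVSAHO in red, 785 called lower in blue, 7988 not called in grey and a dashed line of equal change. Called genes lie on either side of the dashed line, TGM2 and PEG10 far above it and THBS1 and SORL1 far below it.

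A first pattern was a rise in OVSAHO with a fall in MDAH-2774. TGM2, the transglutaminase that cross-links proteins (chromosome 20, 38128461 to 38166509, hg38), had 1126, 1142 and 1176 CPM in vehicle and 584, 609 and 589.6 CPM in treated MDAH-2774 libraries. In OVSAHO it had 657, 578 and 633 CPM in vehicle and 1899.7, 1969 and 1999 CPM in treated libraries. MDAH-2774 thus started above OVSAHO and ended below it, with no overlap between treated and vehicle libraries in either line. The log2 changes were -0.95 ± 0.05 in MDAH-2774 and 1.65 ± 0.05 in OVSAHO, a difference of 2.60 ± 0.07 (adjusted p = 1.5e-13).

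IER3, a stress and NF-kB responsive survival gene (chromosome 6, 30743199 to 30744550), had 295, 322 and 399 CPM in vehicle and 187, 189 and 166 CPM in treated MDAH-2774 libraries. OVSAHO values were 38.6, 30.1 and 33.7 CPM with vehicle and 99.1, 84.9 and 94.9 CPM with the compound. Treatment brought the lines closer together, by a fall in the higher line and a rise in the lower. The difference was 2.35 ± 0.15 (adjusted p = 2.27e-08).

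LAMB3, a chain of the epithelial laminin-332 (chromosome 1, 209614870 to 209652475), had 68.3, 78.3 and 74.8 CPM in vehicle and 36.9, 31.7 and 31.2 CPM in treated MDAH-2774 libraries. It had 6.70, 5.43 and 5.14 CPM in vehicle and 11.7, 9.69 and 10.3 CPM in treated OVSAHO libraries. It moved in the same pattern as IER3, and its difference was 2.02 ± 0.17 (adjusted p = 5.24e-07). The ATP and UTP receptor gene P2RY2 (chromosome 11, 73216448 to 73242427) changed by -1.20 ± 0.16 in MDAH-2774 and 0.83 ± 0.14 in OVSAHO. The membrane-anchored semaphorin gene SEMA7A (chromosome 15, 74409289 to 74433958) changed by -0.81 ± 0.14 in MDAH-2774 and 0.94 ± 0.13 in OVSAHO. For both, OVSAHO had the higher vehicle level, so treatment widened the gap between the lines, and the differences were 2.03 ± 0.21 (adjusted p = 5.55e-06) and 1.75 ± 0.19 (adjusted p = 1.02e-05).

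The reverse pattern, up in MDAH-2774 and down in OVSAHO, was led by THBS1, the matricellular protein thrombospondin 1 (chromosome 15, 39581079 to 39597467). It had 23.3, 20.9 and 28.9 CPM in vehicle and 63.5, 71.3 and 78.3 CPM in treated MDAH-2774 libraries. OVSAHO libraries had 17.1, 16.8 and 17.4 CPM with vehicle and 7.01, 10.1 and 6.27 CPM with the compound. Vehicle levels of the lines were close to each other compared with the treated levels, and no treated library overlapped the vehicle libraries of its line. The changes were 1.54 ± 0.15 in MDAH-2774 and -1.14 ± 0.16 in OVSAHO, a difference of -2.68 ± 0.22 (adjusted p = 3.91e-07).

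SORL1, a sorting receptor of the endosome and Golgi (chromosome 11, 121452203 to 121633762), had 8.93, 7.39 and 8.91 CPM in vehicle and 20.1, 21.1 and 22.7 CPM in treated MDAH-2774 libraries. It had 59.7, 64.4 and 53.2 CPM in vehicle and 26.3, 28.7 and 25.7 CPM in treated OVSAHO libraries. Starting from well separated levels, the lines converged. The difference was -2.47 ± 0.16 (adjusted p = 2.05e-08). The other named genes of this pattern were PLXDC2, a transmembrane protein gene, PIK3IP1, a negative regulator of PI3 kinase, PRKCE, a protein kinase C isoform, and ZNF711, a zinc finger gene. Their differences were -1.59 ± 0.20 (adjusted p = 4.42e-05), -1.48 ± 0.27 (adjusted p = 0.00133), -1.35 ± 0.17 (adjusted p = 5.18e-05) and -1.21 ± 0.22 (adjusted p = 0.00103), respectively.

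**Figure D2:**
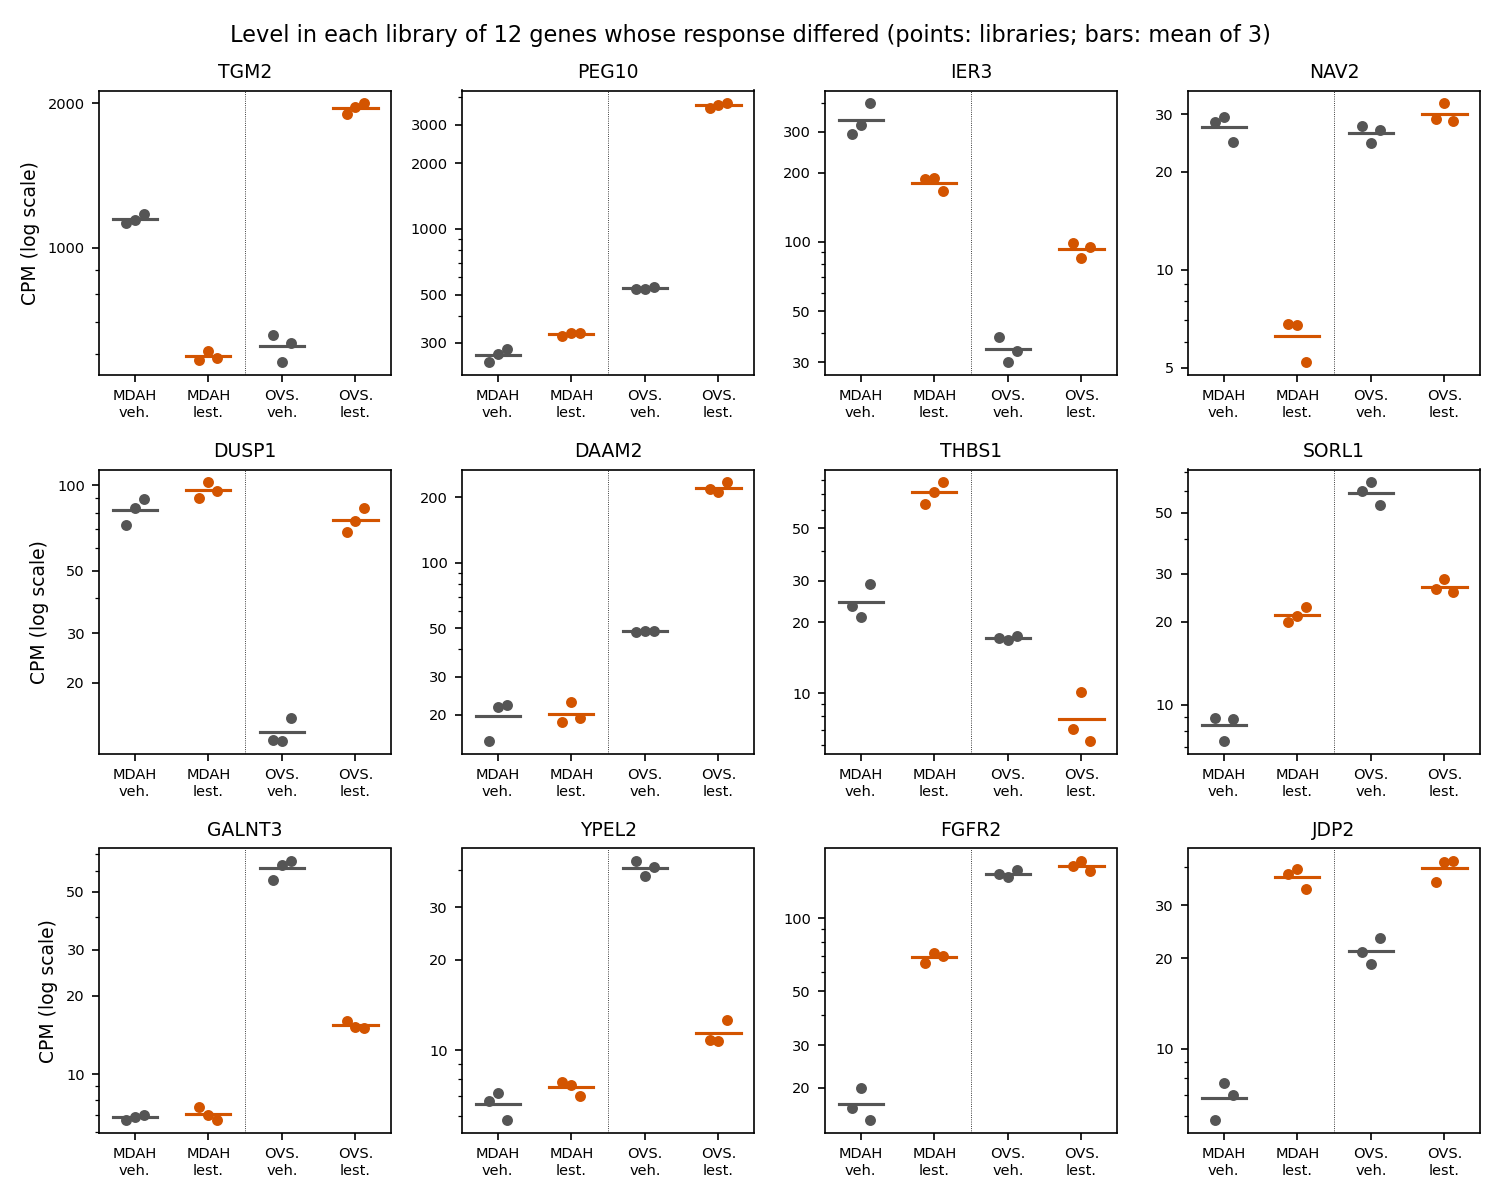
CPM on a log axis in each of the 3 libraries (points) and their mean (bars) for 12 genes in vehicle (grey) and treated (orange) cells of both lines. TGM2 falls to 584 to 609 CPM in MDAH-2774 and rises to 1900 to 1999 CPM in OVSAHO, whereas THBS1 and SORL1 go the opposite way.

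Several of the largest differences came from a response that was called in 1 line. DUSP1, a phosphatase that switches off MAP kinases (chromosome 5, 172768090 to 172771200), had 72.2, 82.9 and 89.7 CPM in vehicle and 90.1, 103 and 95.5 CPM in treated MDAH-2774 libraries. In OVSAHO it went from 12.6, 12.5 and 15.0 CPM with vehicle to 68.4, 74.7 and 83.5 CPM with the compound. OVSAHO started far below MDAH-2774, and its treated libraries came close to or within the MDAH-2774 range. The difference was 2.27 ± 0.14 (adjusted p = 2.05e-08), with 2.50 ± 0.11 in OVSAHO and 0.24 ± 0.10 in MDAH-2774 (adjusted p = 0.111).

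DAAM2, a formin that assembles actin filaments (chromosome 6, 39792366 to 39904877), had 15.2, 21.8 and 22.2 CPM in vehicle and 18.6, 22.9 and 19.3 CPM in treated MDAH-2774 libraries. It had 48.3, 48.8 and 48.6 CPM in vehicle and 218, 212 and 234 CPM in treated OVSAHO libraries. The MDAH-2774 groups overlapped and the OVSAHO groups were far apart, and the difference was 2.15 ± 0.16 (adjusted p = 1.63e-07). The exonuclease gene ISG20 and PLEKHG1, which encodes an exchange factor of small GTPases, also rose in OVSAHO, with differences of 2.07 ± 0.36 (adjusted p = 7.94e-04) and 2.03 ± 0.31 (adjusted p = 2.39e-04). Their levels were low, 1.90 to 12.8 CPM for ISG20 and 3.29 to 29.3 CPM for PLEKHG1 over all libraries.

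NAV2, a cytoskeleton-associated navigator protein gene (chromosome 11, 19345247 to 20121601), had nearly equal vehicle levels in both lines. It had 28.4, 29.4 and 24.6 CPM in vehicle and 6.81, 6.76 and 5.20 CPM in treated MDAH-2774 libraries. It had 27.5, 24.5 and 26.8 CPM in vehicle and 29.1, 32.4 and 28.6 CPM in treated OVSAHO libraries. The fall was called in MDAH-2774 (-2.13 ± 0.13) and the OVSAHO value was 0.19 ± 0.12, giving a difference of 2.32 ± 0.18 (adjusted p = 1.86e-07).

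Among the genes with a lower difference, GALNT3, which starts mucin-type O-glycosylation (chromosome 2, 165747803 to 165794650), had 6.69, 6.88 and 6.97 CPM in vehicle and 7.50, 6.99 and 6.71 CPM in treated MDAH-2774 libraries. It had 55.4, 63.7 and 65.5 CPM in vehicle and 16.0, 15.1 and 15.0 CPM in treated OVSAHO libraries. The treated OVSAHO libraries were far below the vehicle libraries, while MDAH-2774 stayed near its low level. The difference was -2.05 ± 0.15 (adjusted p = 1.63e-07). YPEL2 (chromosome 17, 59331692 to 59401734) and CHRDL1, a BMP antagonist gene (chromosome X, 110673856 to 110796058), likewise fell in OVSAHO, with log2 changes of -1.83 ± 0.13 and -1.30 ± 0.16, with differences of -2.01 ± 0.18 (adjusted p = 1.28e-06) and -1.68 ± 0.22 (adjusted p = 5.81e-05).

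FGFR2, which encodes a receptor for fibroblast growth factors (chromosome 10, 121478330 to 121598656), had 16.5, 20.0 and 14.8 CPM in vehicle and 65.4, 72.1 and 70.0 CPM in treated MDAH-2774 libraries. It had 152, 148 and 158 CPM in vehicle and 165, 172 and 158 CPM in treated OVSAHO libraries. The line with the lower level rose, and the OVSAHO groups overlapped. The difference was -1.91 ± 0.12 (adjusted p = 2.05e-08). MCF2L, which also encodes an exchange factor, rose in MDAH-2774 as well, with 1.68 ± 0.17, and its difference was -1.61 ± 0.23 (adjusted p = 1.55e-04).

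In 63 genes both lines moved the same way by unequal amounts. PEG10, an imprinted gene derived from a retrotransposon (chromosome 7, 94656325 to 94669695), had 246, 268 and 282 CPM in vehicle and 324, 334 and 332 CPM in treated MDAH-2774 libraries. In OVSAHO it had 529, 528 and 544 CPM with vehicle and 3591, 3679.8 and 3756 CPM with the compound. Both lines rose without overlap, by 0.32 ± 0.05 in MDAH-2774 and 2.78 ± 0.05 in OVSAHO, and the difference was 2.47 ± 0.07 (adjusted p = 1.5e-13).

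JDP2, a repressor of AP-1 (chromosome 14, 75427806 to 75472701), had 5.80, 7.67 and 7.04 CPM in vehicle and 37.9, 39.4 and 33.8 CPM in treated MDAH-2774 libraries. It had 21.0, 19.1 and 23.4 CPM in vehicle and 35.9, 41.6 and 41.9 CPM in treated OVSAHO libraries. Treated levels were similar in both lines although vehicle levels were not, and the difference was -1.53 ± 0.17 (adjusted p = 1.57e-05). The uroplakin gene UPK1B changed by 0.37 ± 0.08 in MDAH-2774 and 1.57 ± 0.09 in OVSAHO. PPME1, the methylesterase of protein phosphatase 2A, changed by 1.37 ± 0.08 in MDAH-2774 and 0.24 ± 0.08 in OVSAHO, the OVSAHO value having an adjusted p of 0.05.

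A further 245 genes had the same direction called in both lines and no difference called between them. The zinc finger gene ZBED2 changed by 1.96 ± 0.15 in MDAH-2774 and 1.79 ± 0.15 in OVSAHO. The orphan nuclear receptor gene NR4A1 changed by 1.39 ± 0.23 in MDAH-2774 and 1.33 ± 0.22 in OVSAHO, and BMF, a pro-apoptotic BH3-only gene, by -1.47 ± 0.19 in MDAH-2774 and -1.47 ± 0.20 in OVSAHO. Their differences were -0.17 ± 0.20 (adjusted p = 0.63), -0.07 ± 0.31 (adjusted p = 0.933) and 0.00 ± 0.30 (adjusted p = 1). The small GTPase gene RHOB rose by 1.62 ± 0.16 in MDAH-2774 and 2.17 ± 0.15 in OVSAHO, with a difference of 0.55 ± 0.21 (adjusted p = 0.0889) that was called in DESeq2 (adjusted p = 0.049) and without vehicle OVSAHO replicate 3 (adjusted p = 0.047). A missed threshold does not show that responses were equal.

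**Figure D3:**
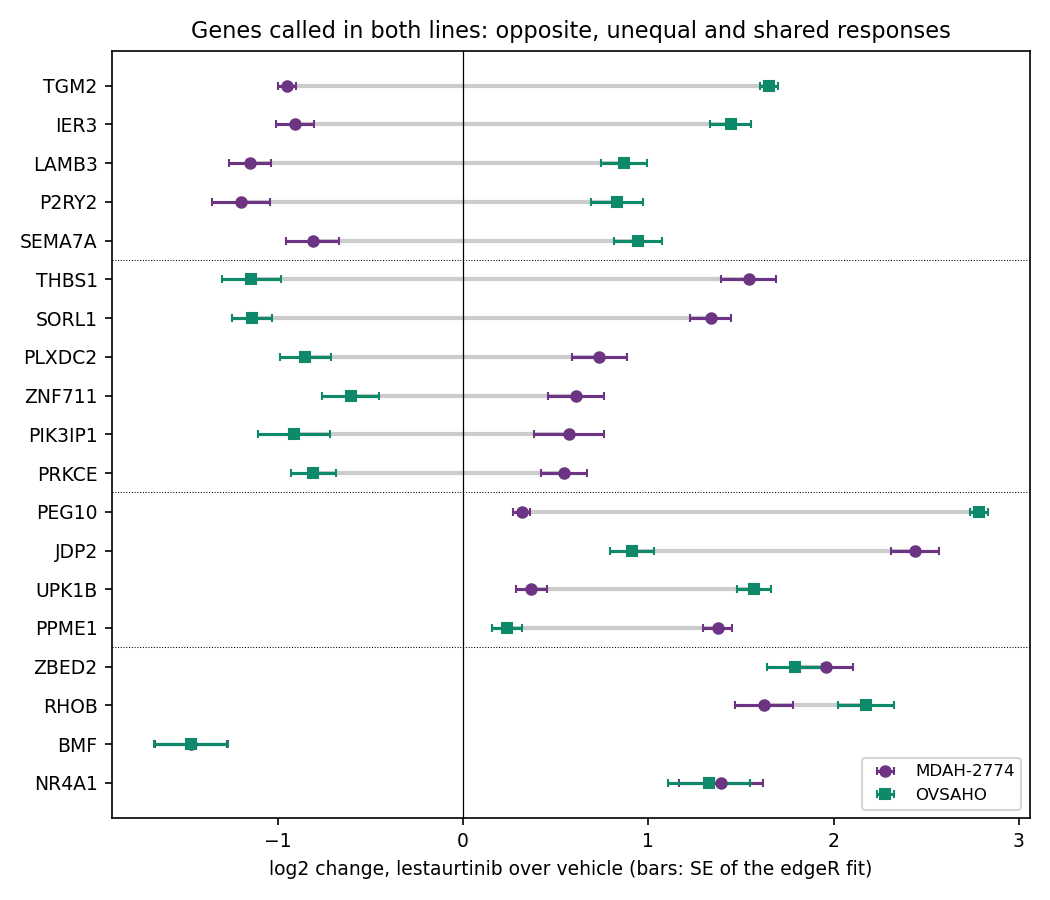
Log2 change with its SE in MDAH-2774 (circles) and OVSAHO (squares) for genes called in both lines. From top to bottom the blocks hold 5 genes up in OVSAHO and down in MDAH-2774, 6 with the reverse, 4 that moved the same way by unequal amounts and 4 with no difference called. TGM2 spans -0.95 to 1.65, and BMF has -1.47 in both lines.

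Genes whose levels followed the leading genes most closely were found after removing the mean of each line, by Pearson correlation of log2 CPM over the 12 libraries. For TGM2 these were LAMA3 (0.984), NDRG1 (0.983) and IER3 (0.983). For THBS1 they were SORL1 (0.977), ABLIM1 (0.975) and PCF11 (0.955), and for SORL1 they were THBS1 (0.977), SORD (0.975) and ABLIM1 (0.973). The leading genes and their matches were both picked in these 12 libraries. Genes with the same directions of change in both lines can reach such values, so these are descriptions and show no common regulation.

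Among genes of the drug's direct signalling path, JAK1 and STAT3 showed modest differences. JAK1 changed by -0.22 ± 0.05 in MDAH-2774 and -0.12 ± 0.05 in OVSAHO, a difference of 0.10 ± 0.06 (adjusted p = 0.306). JAK2 lay below the 5 CPM limit, and FLT3 was not among the genes tested. STAT3, the factor downstream of JAK kinases, fell in both lines, with changes of -0.16 ± 0.05 in MDAH-2774 and -0.38 ± 0.05 in OVSAHO, and the difference of -0.22 ± 0.07 (adjusted p = 0.0412) was called at the margin. It was not called with RLE scaling (adjusted p = 0.054), a replicate block (adjusted p = 0.07) or a block within each line (adjusted p = 0.11). Nor was it called in 8 of the 12 fits without 1 library, with adjusted p of 0.053 to 0.11. Those libraries were treated MDAH-2774 replicates 1 to 3, vehicle MDAH-2774 replicates 2 and 3, treated OVSAHO replicates 1 and 3 and vehicle OVSAHO replicate 1.

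SOCS3, the feedback inhibitor that STAT3 induces, fell in MDAH-2774 from 57.7, 73.5 and 75.6 CPM to 37.2, 40.1 and 37.6 CPM. OVSAHO libraries had 43.9, 34.5 and 37.9 CPM with vehicle and 35.4, 32.5 and 38.1 CPM with the compound. The MDAH-2774 groups did not overlap and the OVSAHO groups did, and the difference was 0.71 ± 0.16 (adjusted p = 0.00507). IL4R, an interleukin 4 receptor chain, changed by -0.51 ± 0.10 in MDAH-2774 and 0.56 ± 0.11 in OVSAHO, with a difference of 1.07 ± 0.15 (adjusted p = 1.22e-04). Of 21 JAK-STAT components and targets, 6 had a higher (28.6%) and 1 a lower difference (4.76%), against 11.4% and 7.93% of all 9898 genes. The median was 0.30 against 0.03 over all genes. The lower call was STAT3. Of 13 kinases reported to bind lestaurtinib, 2 had a higher difference (15.4%, near the 11.4% of all genes), the mitotic kinases AURKB (0.74 ± 0.09 (adjusted p = 2.3e-05)) and AURKA (0.50 ± 0.10 (adjusted p = 0.0028)).

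Of 11 genes of ERK output and feedback, 5 had a higher (45.5%) and 0 a lower difference, against 11.4% and 7.93% of all 9898 genes. The median was 0.30. The dual-specificity phosphatase gene DUSP5 and the pleckstrin-domain gene PHLDA1 rose in OVSAHO, by 1.27 and 1.78. The ETS factor genes ETV4 and ETV5 fell in both lines and further in MDAH-2774, at -1.35 and -1.29 there against -0.58 and -0.47 in OVSAHO. SPRY2, an inhibitor of receptor tyrosine kinase signalling, rose by 1.26 ± 0.17 in MDAH-2774 and 1.29 ± 0.14 in OVSAHO. Its difference was 0.03 ± 0.23 (adjusted p = 0.971). MYC had a difference of -0.13 ± 0.10 (adjusted p = 0.436).

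NF-kB target and cytokine genes fell in MDAH-2774 and rose in OVSAHO. Of 14 such genes, 10 fell in MDAH-2774 and 0 rose, while in OVSAHO 11 rose and 0 fell. Over all 9898 genes, 8.74% rose and 11.4% fell in MDAH-2774, and 10.8% rose and 6.88% fell in OVSAHO. These shares are the background for the single-line counts of every list. The difference was called higher for 13 of the 14 and lower for 0, against 11.4% and 7.93% of all 9898 genes. Of 28 listed genes, 24 were in the deposited table and 14 met the level limit. A gene low in vehicle OVSAHO could meet it through its rise. The median vehicle gap of the 14 was -2.25 log2 (OVSAHO minus MDAH-2774). Among all genes with a gap below -2, 32.5% were called higher and 5.48% lower (means of 3 rounds described below). The share over all genes is therefore an unlike background. Median log2 changes of the 14 were -0.62 in MDAH-2774 and 0.51 in OVSAHO, and the median difference was 1.05. The 14th gene, TRAF1, had a difference of 0.85 ± 0.32 (adjusted p = 0.08).

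NFKBIA, the inhibitor that NF-kB itself induces (chromosome 14, 35401510 to 35404754), had 302, 300.1 and 305 CPM in vehicle and 175, 189.8 and 184 CPM in treated MDAH-2774 libraries. It had 45.2, 47.2 and 53.2 CPM in vehicle and 60.9, 62.6 and 66.7 CPM in treated OVSAHO libraries. Neither line showed overlap between its groups, and the difference was 1.11 ± 0.09 (adjusted p = 3.91e-07). The cytokine gene IL32 (chromosome 16, 3065312 to 3069667) changed by -0.57 ± 0.06 in MDAH-2774 and 0.51 ± 0.06 in OVSAHO, a difference of 1.08 ± 0.09 (adjusted p = 4.43e-07). The STAT3-activating cytokine gene LIF (chromosome 22, 30240447 to 30257923) rose in OVSAHO, from 25.2, 23.7 and 21.7 CPM to 45.0, 44.4 and 49.4 CPM. In MDAH-2774 it had 204, 213 and 219.9 CPM with vehicle and 188, 194 and 195 CPM with the compound, and the difference was 1.12 ± 0.09 (adjusted p = 4.83e-07). TNF, the inflammatory cytokine gene, changed by -1.03 and 0.80, and the deubiquitinase gene TNFAIP3 by -0.67 and 0.60. The factor genes NFKB2 and RELB rose in OVSAHO, by 0.89 and 0.61, and had 0.02 and 0.04 in MDAH-2774. The RELB difference was not called without treated MDAH-2774 replicate 3 (adjusted p = 0.054).

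The promoters of NFKBIA and LAMB3 are shown because each gene fell in MDAH-2774 and rose in OVSAHO and each window holds matches to the NF-kB motif, given in capitals. Overlapping matches in LAMB3 form 1 run. The windows are the 250 bases before the start of each gene from RefSeq (GRCh38.p14), written 5′ to 3′ on the strand of the gene, at chr14:35404750-35404999 (minus strand) and chr1:209652426-209652675 (minus strand). These starts differ from the gene ranges given above. By those ranges the last capital run of LAMB3 lies inside the gene, and the NFKBIA window reaches a few bases into its gene.
NFKBIA: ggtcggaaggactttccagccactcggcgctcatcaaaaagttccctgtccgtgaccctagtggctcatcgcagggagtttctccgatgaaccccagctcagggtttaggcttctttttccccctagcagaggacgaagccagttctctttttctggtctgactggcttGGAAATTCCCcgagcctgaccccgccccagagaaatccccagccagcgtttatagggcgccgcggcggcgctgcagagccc
LAMB3: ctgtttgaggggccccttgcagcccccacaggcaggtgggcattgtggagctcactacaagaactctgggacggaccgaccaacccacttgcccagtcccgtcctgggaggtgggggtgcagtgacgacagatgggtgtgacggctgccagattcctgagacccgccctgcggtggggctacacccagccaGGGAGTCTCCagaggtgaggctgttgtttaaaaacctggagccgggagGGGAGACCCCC

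Immediate early and AP-1 genes did not move as 1 block. Of 16, 6 had a higher (37.5%) and 1 a lower difference (6.25%), against 11.4% and 7.93% of all 9898 genes. The median was 0.43, and in OVSAHO 9 rose and 0 fell. In MDAH-2774, 3 rose and 5 fell. JUN, the main AP-1 subunit (chromosome 1, 58780791 to 58784113), had 11.9, 12.2 and 14.1 CPM in vehicle and 3.84, 2.99 and 3.96 CPM in treated MDAH-2774 libraries. It had 37.1, 28.7 and 34.1 CPM in vehicle and 33.7, 32.8 and 38.8 CPM in treated OVSAHO libraries. JUN thus fell in MDAH-2774 without overlap, and the OVSAHO groups overlapped, a difference of 1.90 ± 0.20 (adjusted p = 5.98e-06). JUND changed by -0.41 and 0.47, opposite ways. The lower call was JDP2, described above.

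DUSP1 and DAAM2, which rose in OVSAHO and were not called in MDAH-2774, are shown for their matches to the cyclic AMP response element TGACGTCA, in capitals. The windows are again 250 bases from RefSeq (GRCh38.p14), at chr5:172771196-172771445 (minus strand) and chr6:39792126-39792375 (plus strand).
DUSP1: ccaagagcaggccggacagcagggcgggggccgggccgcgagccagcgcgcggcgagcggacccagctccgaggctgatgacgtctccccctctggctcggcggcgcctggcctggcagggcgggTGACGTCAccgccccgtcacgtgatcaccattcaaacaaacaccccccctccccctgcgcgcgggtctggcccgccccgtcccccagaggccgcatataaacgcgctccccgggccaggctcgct
DAAM2: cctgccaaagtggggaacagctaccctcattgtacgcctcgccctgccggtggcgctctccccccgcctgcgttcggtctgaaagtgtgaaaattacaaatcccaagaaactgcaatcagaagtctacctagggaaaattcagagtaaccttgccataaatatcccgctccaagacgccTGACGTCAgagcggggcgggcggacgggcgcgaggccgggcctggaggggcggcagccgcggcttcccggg

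Of 23 interferon-stimulated genes, 3 had a higher difference (13.0%, against 11.4% of all 9898 genes) and 4 a lower one (17.4%, against 7.93%), with a median of -0.10. In OVSAHO 3 rose and 8 fell (median -0.25), and in MDAH-2774 0 rose and 2 fell (median -0.09). The higher calls were ISG20 and the antigen-processing genes TAP1 and PSMB9. TAP1, the peptide transporter (chromosome 6, 32845209 to 32853971), had 134, 124 and 131 CPM in vehicle and 121, 118 and 121 CPM in treated MDAH-2774 libraries. In OVSAHO it had 24.0, 22.6 and 28.6 CPM with vehicle and 55.0, 50.2 and 51.0 CPM with the compound. It rose without overlap in the line with the lower level, and the differences of TAP1 and PSMB9 were 1.17 ± 0.11 (adjusted p = 2.24e-06) and 1.08 ± 0.16 (adjusted p = 2.48e-04). The lower calls were the antiviral membrane protein genes IFITM1 and IFITM3 and the ADP-ribosyltransferase genes PARP9 and PARP14. IFITM1 fell in OVSAHO from 209, 218 and 203 CPM to 135, 123 and 130.5 CPM, with a difference of -0.94 ± 0.13 (adjusted p = 1.01e-04). The IFITM genes resemble each other in sequence, so the assignment of their reads is uncertain.

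Glycolytic and hypoxia genes fell in MDAH-2774 and mostly were not called in OVSAHO. Of 32, 26 fell and 2 rose in MDAH-2774 (median -0.40), and in OVSAHO 10 rose and 1 fell (median 0.05). The difference was higher for 26 (81.25%) and lower for 1 (3.125%), against 11.4% and 7.93% of all 9898 genes, with a median of 0.55. LDHA, which makes lactate (chromosome 11, 18394389 to 18408218), had 3332, 3134 and 3213 CPM in vehicle and 2113, 2126 and 2249.7 CPM in treated MDAH-2774 libraries. The OVSAHO libraries had 1022, 1117 and 1038 CPM with vehicle and 1516, 1398 and 1359.8 CPM with the compound. The lines moved towards each other, and the difference was 1.01 ± 0.07 (adjusted p = 5.46e-08).

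PKM, the last kinase of glycolysis, fell in MDAH-2774 (-0.78 ± 0.04) and had 0.02 ± 0.04 in OVSAHO. The glycolytic kinase gene PGK1 had the same form, -0.80 and 0.03. NDRG1, a hypoxia and differentiation marker, went opposite ways, -0.58 and 1.03. The 1 lower call was PFKM, the muscle-type phosphofructokinase gene, at -0.58 ± 0.13 (adjusted p = 0.00491).

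**Figure D4:**
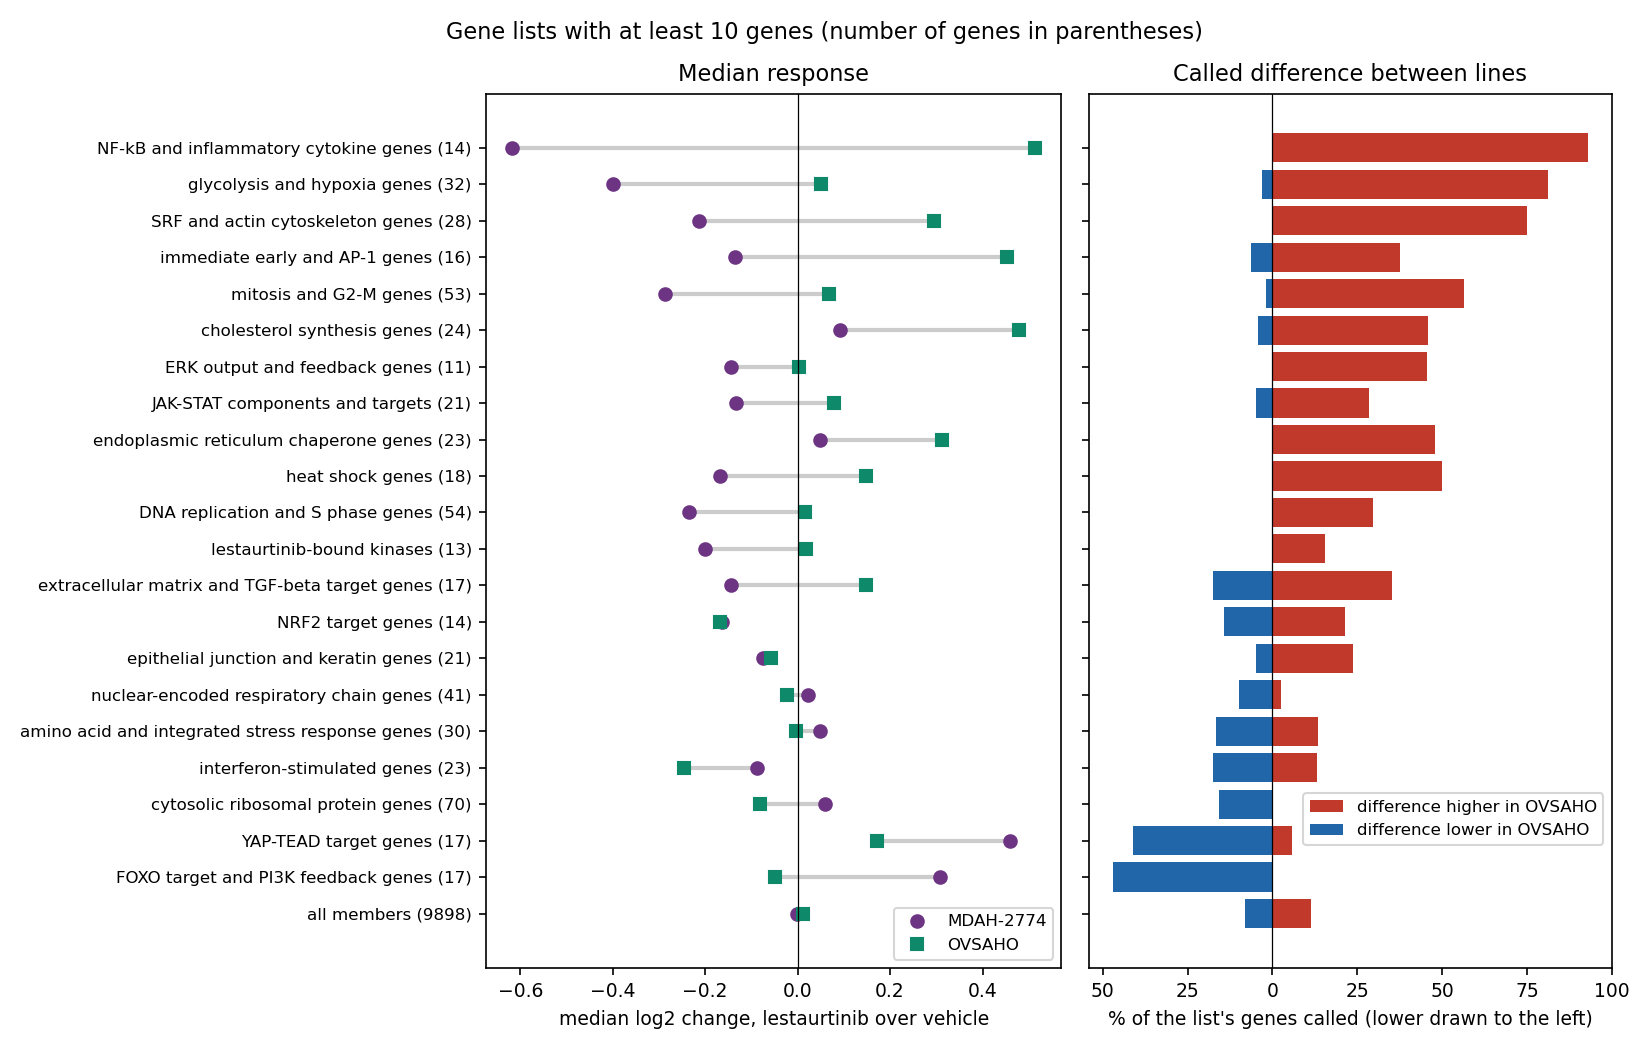
Left, median log2 change with lestaurtinib in MDAH-2774 (circles) and OVSAHO (squares) for gene lists of at least 10 genes and for all 9898 genes. Right, percentage of each list whose difference was called higher (red, to the right) or lower (blue, to the left) in OVSAHO. NF-kB genes stand at -0.62 and 0.51 and glycolysis genes at -0.40 and 0.05, while all genes stand near 0.

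Cholesterol synthesis genes rose in OVSAHO. Of 24, 17 rose there and 0 fell, against 6 and 0 in MDAH-2774. The difference was higher for 11 (45.8%) and lower for 1 (4.17%), against 11.4% and 7.93% of all 9898 genes, with a median of 0.32. INSIG1, which retains the sterol sensor in the endoplasmic reticulum (chromosome 7, 155297776 to 155310235), had 34.6, 28.0 and 35.4 CPM in vehicle and 49.8, 54.3 and 56.2 CPM in treated OVSAHO libraries. In MDAH-2774 it had 359.8, 374 and 388 CPM with vehicle and 363, 331 and 306 CPM with the compound. The OVSAHO groups did not overlap and the MDAH-2774 groups did, and the difference was 0.88 ± 0.12 (adjusted p = 6.63e-05). The squalene synthase gene FDFT1 had a difference of 0.46 ± 0.07 (adjusted p = 3.95e-04). The lower call was the sterol reductase gene TM7SF2, which rose in MDAH-2774 (0.59). Its difference was not called without treated MDAH-2774 replicate 1 or vehicle MDAH-2774 replicate 2 (adjusted p of 0.051 to 0.060).

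FOXO target and PI3 kinase feedback genes ran the other way. Of 17, 8 had a lower (47.1%, against 7.93% of all 9898 genes) and 0 a higher difference, with a median of -0.42. IRS2, an insulin receptor substrate (chromosome 13, 109753837 to 109786567), had 65.2, 66.5 and 72.9 CPM in vehicle and 146, 144 and 129 CPM in treated MDAH-2774 libraries. It had 45.8, 49.0 and 50.8 CPM in vehicle and 46.2, 52.4 and 55.5 CPM in treated OVSAHO libraries. It rose in MDAH-2774 and its OVSAHO groups overlapped, a difference of -0.95 ± 0.11 (adjusted p = 2.36e-05). TXNIP, a thioredoxin-binding arrestin that limits glucose uptake (chromosome 1, 145992435 to 145996631), fell in OVSAHO (-0.85 ± 0.05) and had 0.15 ± 0.05 in MDAH-2774, with an adjusted p of 1.86e-07 for the difference. CITED2 and TSC22D3 rose in MDAH-2774, by 1.06 and 0.68.

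Amino acid and integrated stress response genes had 4 higher and 5 lower calls among 30 (median -0.06). These were 13.3% and 16.7%, against 11.4% and 7.93% of all 9898 genes. The higher calls numbered 1 with upper quartile scaling, 2 with limma on RPKM and 2 without treated MDAH-2774 replicate 1, vehicle MDAH-2774 replicate 3, treated OVSAHO replicate 3 or vehicle OVSAHO replicate 2. The serine synthesis gene PSAT1 and the asparagine synthetase gene ASNS went up in MDAH-2774 and down in OVSAHO, with differences of -0.82 ± 0.07 (adjusted p = 1.28e-06) and -0.50 ± 0.08 (adjusted p = 3.04e-04). The secreted glycoprotein gene STC2 had -0.90 ± 0.13 (adjusted p = 1.47e-04). Among 14 NRF2 targets, 3 were higher (21.4%) and 2 lower (14.3%), against 11.4% and 7.93% of all 9898 genes. With so few genes these counts are close to the background. The transaldolase gene TALDO1 was higher by 0.35 ± 0.07 (adjusted p = 0.00251), and the ferritin light chain gene FTL was lower, at -0.30 ± 0.06 (adjusted p = 0.00134). Nuclear-encoded respiratory chain genes had 1 higher (2.44%) and 4 lower calls (9.76%, near the 7.93% of all genes) among 41. Their median of 0.00 became -0.07 with upper quartile scaling. That scaling gave 7 lower calls. Leaving out single libraries gave 1 to 6, with 1 or 2 without any of the treated MDAH-2774 replicates, vehicle MDAH-2774 replicate 2, treated OVSAHO replicate 2 or 3 or vehicle OVSAHO replicate 2 or 3. The higher calls numbered 3 in DESeq2 and without vehicle MDAH-2774 replicate 2. UQCRC1, a complex III core gene, was higher by 0.35 ± 0.07 (adjusted p = 0.00176). The complex I gene NDUFB5, at -0.35 ± 0.11 (adjusted p = 0.0304), was not called in 8 of the 12 fits without 1 library, where the adjusted p was 0.050 to 0.072. Those left out treated MDAH-2774 replicate 1, 2 or 3, vehicle MDAH-2774 replicate 1 or 3, treated OVSAHO replicate 2 or 3, or vehicle OVSAHO replicate 3.

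Actin cytoskeleton and SRF target genes fell in MDAH-2774 and rose in OVSAHO. Of 28, 17 fell and 1 rose in MDAH-2774, and 16 rose and 2 fell in OVSAHO. The difference was higher for 21 (75%) and lower for 0, against 11.4% and 7.93% of all 9898 genes, with a median of 0.46. TPM4, a tropomyosin that stabilises actin filaments (chromosome 19, 16067507 to 16103005), had 595, 599 and 597 CPM in vehicle and 407, 399 and 407 CPM in treated MDAH-2774 libraries. The OVSAHO levels were 936, 960.3 and 961 CPM with vehicle and 1288, 1247 and 1219.8 CPM with the compound. Libraries within a group lay close together, and the difference was 0.96 ± 0.05 (adjusted p = 5.69e-09).

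TAGLN, an actin-binding protein typical of contractile cells, changed by -0.68 ± 0.14 in MDAH-2774 and 1.34 ± 0.13 in OVSAHO, a difference of 2.02 ± 0.19 (adjusted p = 1.93e-06). Cytoplasmic actin genes ACTB and ACTG1, whose sequences are similar, had differences of 0.64 ± 0.07 (adjusted p = 5.14e-06) and 0.52 ± 0.07 (adjusted p = 5.02e-05). YAP-TEAD target genes, by contrast, rose in MDAH-2774 (12 of 17, 0 fell) and in OVSAHO (8 of 17, 1 fell). The difference was lower for 7 (41.2%) and higher for 1 (5.88%), against 7.93% and 11.4% of all 9898 genes. The median was -0.25, and the difference was lower for 4 without treated MDAH-2774 replicate 3. The LIM protein gene AJUBA rose in MDAH-2774 and the factor gene TEAD1 rose further there than in OVSAHO, with differences of -0.56 ± 0.07 (adjusted p = 4.35e-05) and -0.47 ± 0.07 (adjusted p = 2.45e-04). MYOF, a membrane repair protein gene, fell in OVSAHO, and its difference was -0.73 ± 0.08 (adjusted p = 8.28e-06). The higher call was CRIM1, at 0.41 ± 0.06 (adjusted p = 2.77e-04), and the matricellular genes CCN1 and CCN2 had differences of -0.33 ± 0.13 (adjusted p = 0.0994) and 0.66 ± 0.25 (adjusted p = 0.0785).

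Of 17 extracellular matrix and TGF-beta target genes, 6 had a higher (35.3%) and 3 a lower difference (17.6%), against 11.4% and 7.93% of all genes. The median was 0.19. Besides LAMB3, the laminin-332 chain LAMA3 (chromosome 18, 23689443 to 23955066) went from 257, 272 and 259.9 CPM to 625, 607 and 586 CPM in OVSAHO. In MDAH-2774 it went from 30.9, 27.9 and 29.1 CPM to 20.9, 19.2 and 18.2 CPM. The lines moved apart, and the difference was 1.79 ± 0.08 (adjusted p = 5.86e-10). The matrix glycoprotein gene TNC changed by -0.69 ± 0.05 in MDAH-2774 and 0.80 ± 0.06 in OVSAHO, from a vehicle level that was far higher in MDAH-2774, and its difference was 1.49 ± 0.08 (adjusted p = 1.49e-09). The lower calls were THBS1, the collagen gene COL4A1 (-0.34) and the protease inhibitor gene SERPINE2 (-0.71).

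The THBS1 promoter is shown because the gene has the lowest difference of those named here, with its match to the TEAD motif GGAATG in capitals. It is the 250 bases before the start in RefSeq (GRCh38.p14), at chr15:39580829-39581078 (plus strand).
THBS1: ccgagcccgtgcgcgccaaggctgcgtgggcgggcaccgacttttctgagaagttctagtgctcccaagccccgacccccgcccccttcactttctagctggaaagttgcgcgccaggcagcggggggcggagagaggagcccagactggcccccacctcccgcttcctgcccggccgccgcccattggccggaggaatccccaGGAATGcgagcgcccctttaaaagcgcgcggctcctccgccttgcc

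Epithelial junction and keratin genes had 5 higher (23.8%) and 1 lower call (4.76%) among 21, against 11.4% and 7.93% of all genes. Their median of 0.01 became -0.06 with upper quartile scaling. Limma on RPKM gave 3 higher calls, and the fit without treated OVSAHO replicate 1 gave 3 lower calls. KRT18, a simple epithelial keratin (chromosome 12, 52948871 to 52952901), went from 332, 335 and 322 CPM to 704, 708 and 679.5 CPM in OVSAHO. In MDAH-2774 it went from 667, 669 and 694 CPM to 600.5, 608 and 608 CPM. The difference was 1.24 ± 0.06 (adjusted p = 4.95e-10). Its partner KRT8 had 0.92 ± 0.09 (adjusted p = 5.14e-06), and the listed range of KRT8 (chromosome 12, 52897187 to 52949866) overlaps that of KRT18. No source used here gives the strand setting of the counting, so reads of overlapping genes cannot be told apart. The desmosome gene JUP rose in both lines, with a difference of 0.55 ± 0.11 (adjusted p = 0.00305), and the lower call was the cadherin gene CDH2 (-0.39). Among 4 lineage markers, PAX8 was higher (0.51 ± 0.08 (adjusted p = 3.01e-04)), with changes of -0.73 in MDAH-2774 and -0.22 in OVSAHO, while CRABP2 and WT1 had differences of 0.45 ± 0.18 (adjusted p = 0.0971) and -0.24 ± 0.12 (adjusted p = 0.192). CRABP2 was called without treated OVSAHO replicate 1 (adjusted p = 0.023), and WT1 in limma on log2(RPKM + 1) (adjusted p = 0.047).

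Genes for protein folding moved upward in OVSAHO. Of 23 endoplasmic reticulum chaperone genes, 16 rose there and 0 fell, and in MDAH-2774 3 rose and 1 fell. The difference was higher for 11 (47.8%) and lower for 0 (median 0.28), against 11.4% and 7.93% of all 9898 genes. HSPA5, the main chaperone of that compartment (chromosome 9, 125234848 to 125241387), had 467, 497 and 480.0 CPM in vehicle and 730.3, 659 and 682 CPM in treated OVSAHO libraries. In MDAH-2774 it had 1161, 1103 and 1166 CPM with vehicle and 1079.6, 1044 and 1122 CPM with the compound. The MDAH-2774 groups overlapped and the OVSAHO groups did not, and the difference was 0.60 ± 0.07 (adjusted p = 1.3e-05). HYOU1 and the calcium-binding CALR had 0.58 ± 0.07 (adjusted p = 1.22e-05) and 0.50 ± 0.06 (adjusted p = 1.97e-05).

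Heat shock genes had 9 higher (50%, against 11.4% of all genes) and 0 lower calls among 18 (median 0.26). The higher calls numbered 5 with upper quartile scaling and without treated MDAH-2774 replicate 1, treated OVSAHO replicate 2 or vehicle OVSAHO replicate 3. The co-chaperone gene STIP1 changed by -0.28 ± 0.05 in MDAH-2774 and 0.25 ± 0.05 in OVSAHO, a difference of 0.53 ± 0.07 (adjusted p = 4.76e-05). Cytosolic ribosomal protein genes had 0 higher and 11 lower calls (15.7%, against 7.93% of all genes) among 70, with a median of -0.13. Upper quartile scaling gave 26 lower calls, and leaving out single libraries gave 6 (without treated MDAH-2774 replicate 3) to 25 (without vehicle MDAH-2774 replicate 1), and 17 without vehicle OVSAHO replicate 1. RPL22 was the member with the lowest adjusted p, with 0.32 ± 0.06 in MDAH-2774 and -0.18 ± 0.06 in OVSAHO and a difference of -0.50 ± 0.08 (adjusted p = 3.48e-04). Copies of these genes elsewhere in the genome make their read assignment uncertain.

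Cell cycle genes fell in MDAH-2774. Of 53 mitosis genes, 29 fell and 0 rose there (median -0.29), and in OVSAHO 11 rose and 2 fell (median 0.07). The difference was higher for 30 (56.6%) and lower for 1 (1.89%), against 11.4% and 7.93% of all 9898 genes. The median was 0.37, and upper quartile scaling left 20 higher. AURKB, a kinase of chromosome segregation (chromosome 17, 8204731 to 8210626), had 226, 226 and 229 CPM in vehicle and 145, 152 and 155 CPM in treated MDAH-2774 libraries. It had 39.9, 45.1 and 40.2 CPM in vehicle and 45.8, 44.1 and 48.5 CPM in treated OVSAHO libraries. MDAH-2774 fell without overlap and the OVSAHO groups overlapped. BUB1 and CDC20, which act in the spindle checkpoint and in anaphase onset, had differences of 0.69 ± 0.08 (adjusted p = 3.03e-05) and 0.56 ± 0.07 (adjusted p = 2.68e-05). The lower call was the checkpoint gene MAD2L1 (-0.31, adjusted p = 0.0465), which was not called with RLE scaling (adjusted p = 0.053) or in 10 of the 12 fits without 1 library, all but those without vehicle replicate 1 of either line (adjusted p of 0.052 to 0.15). The proliferation marker MKI67 had -0.01 ± 0.11 (adjusted p = 1), and its MDAH-2774 groups overlapped.

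Of 54 replication genes, 24 fell and 0 rose in MDAH-2774, and 5 rose and 6 fell in OVSAHO. The difference was higher for 16 (29.6%) and lower for 0 (median 0.24), against 11.4% and 7.93% of all 9898 genes. Under upper quartile scaling 10 were higher. The helicase subunit genes MCM5 and MCM7 had differences of 0.88 ± 0.13 (adjusted p = 2.42e-04) and 0.40 ± 0.06 (adjusted p = 1.64e-04), and the S phase factor gene E2F1 had 0.68 ± 0.10 (adjusted p = 2.69e-04). CD68, the 1 marker of other cells among the 9898 genes, fell in both lines, with changes of -1.46 ± 0.15 in MDAH-2774 and -0.46 ± 0.15 in OVSAHO and a difference of 1.00 ± 0.21 (adjusted p = 0.00307).

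The difference between lines was related to how far the vehicle levels stood apart. To keep the measurements separate, the gap between lines was taken from 1 vehicle library of each line (replicate 1, 2 or 3 in turn), and the difference was fitted on the other 10 libraries. Values are means ± SD over these 3 rounds, which share most libraries and are not independent. Where the vehicle level in OVSAHO was lower by more than 2 on the log2 scale (282 to 343 genes), the median difference was 0.25 ± 0.04. There, 32.5% of genes were called higher and 5.48% lower. Where it was higher by more than 2 (342 to 365 genes), the median difference was -0.22 ± 0.05, with 8.96% called higher and 25.6% lower.

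Between gaps of -1 and 1 the median difference was 0.02 ± 0.00, with 8.95% higher and 5.80% lower. The steps between, from -2 to -1 and from 1 to 2, had medians of 0.12 ± 0.01 and -0.08 ± 0.02. Both lines contributed to the pattern. In the genes lowest in OVSAHO the median change was -0.12 ± 0.03 in MDAH-2774 and 0.09 ± 0.02 in OVSAHO, and in the genes highest in OVSAHO it was 0.14 ± 0.02 and -0.03 ± 0.02. Over all 9898 genes the correlation of gap and difference was weak, with a Pearson r of -0.187, -0.260 and -0.272 in the 3 rounds and a Spearman rho of -0.162, -0.237 and -0.251. These are values across genes and carry no test. They include genes with a mean below 5 CPM in 1 or more of the 4 groups. The level limit used all libraries of a line, the held-out ones among them. It could let in genes that rose in the line with the lower level and keep out genes that fell there. This acts in the direction of the pattern, and its part in these values was not tested.

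**Figure D5:**
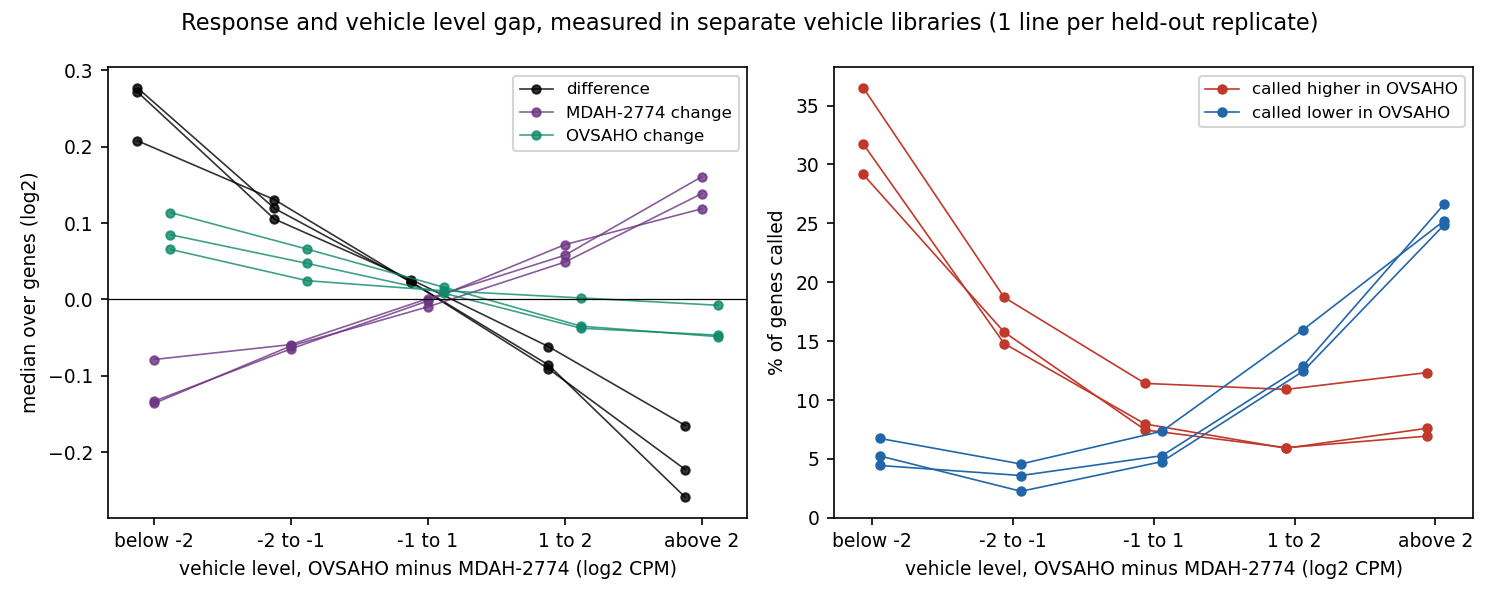
Left, median over genes of the difference (black) and of the change in MDAH-2774 (purple) and OVSAHO (green) by the vehicle gap between the lines in log2 CPM. Right, percentage of genes called higher (red) or lower (blue). Each line is 1 of 3 rounds with the gap measured in a held-out vehicle library of each line; the median difference runs from about 0.25 below -2 to about -0.22 above 2.

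The pattern was visible in the named genes but did not hold for all. IER3, LAMB3, NFKBIA and TNC had vehicle levels well above OVSAHO in MDAH-2774, with log2 gaps of -3.31, -3.68, -2.64 and -4.14, and all had higher differences. SORL1 and GALNT3 had gaps of 2.81 and 3.15 and lower differences. LAMA3 and DAAM2 went against it, with gaps of 3.17 and 1.32 and higher differences. So did JUN, PEG10, TPM4, P2RY2 and SEMA7A, whose vehicle levels were also higher in OVSAHO and whose differences were higher. Not every named gene is sorted here. NAV2, at a gap of -0.06, and THBS1, at -0.50, had smaller gaps. These gaps use the same vehicle libraries as the differences and are given as descriptions.

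Genes with a higher vehicle level were called more often. The genes were divided into 4 equal bins by mean vehicle level, with medians of 14.3, 30.7, 58.6 and 147.6 CPM, and 12.2%, 15.8%, 18.9% and 30.2% of them were called. The median size of the difference was smaller in the higher bins, from 0.286 to 0.212, 0.189 and 0.175, and the median SE fell from 0.235 to 0.090. Differences of at least 1 were called for 94, 42, 28 and 21 genes. Higher calls made up 4.97% of the lowest and 21.7% of the highest bin, while lower calls stayed between 7.27% and 8.48%. With upper quartile scaling the highest bin had 14.9% higher and 12.2% lower.

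Promoter windows of 250 bases before the start were available for 8268 of the 9898 genes (83.5%) and were searched on both strands for 8 motifs. A match to the NF-kB motif was found in 18 of 91 windows (19.8%) of genes with a higher difference of at least 1, and in 5 of 66 (7.58%) with a lower one. Over all called genes the shares were 12.7% higher and 10.5% lower, beside 11.7% of genes not called and 9.57% of all 27305 promoters. The cyclic AMP response element was found in 4.29% of genes called higher, 1.66% of genes called lower, 3.25% not called and 1.77% of all promoters. Shares for the AP-1 motif TGANTCA were 2.83%, 3.77%, 3.31% and 6.60%, and for the TEAD motif GGAATG they were 9.84%, 9.79%, 8.90% and 11.9%. For the interferon-stimulated response element they were 1.36%, 1.96%, 2.26% and 3.07%. For the E2F motif TTTNGCGC they were 2.20%, 1.96%, 2.72% and 1.54%. For the sterol element TCACNCCAC they were 1.05%, 0.753%, 0.812% and 0.875%, and for the CArG box of SRF 1.47%, 1.20%, 0.827% and 1.14%. In the 91 higher and 66 lower windows of genes with a difference of at least 1, the AP-1 motif was in 7.69% and 3.03%. There the TEAD motif was in 7.69% and 13.6%, and the cyclic AMP response element in 5.49% and 1.52%. The interferon-stimulated response element was in 2.20% and 0%, and the CArG box also in 2.20% and 0%. The E2F motif was in 0% and 3.03%, and the sterol element in 0% and 1.52%. A match describes letters in a window and shows no binding.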

How the data were processed

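The 12 RNA sequencing libraries of MDAH-2774 and OVSAHO cells, 3 per group, were grouped by title. Per the labels' protocols, RNA came from a miRNeasy kit and library preparation was TruSeq stranded mRNA. The build hg38, STAR 2.7.3a and featureCounts 2.8.2 (version as listed) are named, per the submitters' processing notes. The authors' deposited table holds unnormalized read counts per gene. It also holds the authors' RPKM values, which are scaled per library and gene length, with every gene reaching at least 1.0005 RPKM in some library.

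Counts were fitted with edgeR 4.0.16 in R 4.3.3, by glmQLFit and glmQLFTest, over all 12 libraries, with TMM scaling and 1 term per group. The filterByExpr filter (minimum count 10) removed 371 genes. Contrasts were the change in each line and their difference, adjusted by Benjamini-Hochberg over 13498 genes at 0.05. CPM are on TMM-scaled library sizes, log2 changes carry the SE of the fit, and the biological coefficient of variation was 0.125. Replicate pairs differed beyond sampling noise (5.78 to 28.6 as chi-square per degree of freedom), and none was treated as a library deposited more than once. The test was tried on simulated data first.

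Alternatives were RLE and upper quartile scaling, looser and stricter filters, limma-voom, DESeq2 1.42.0, limma 3.58.1 on log2(RPKM + 1) and log2(RPKM + 0.1), a replicate block, other level limits and leaving out each library. Tables and plots used Python 3.11.15, matplotlib 3.10.9, pandas 2.3.3 and numpy 2.4.6. Genes were named by rule. The 10 highest and 10 lowest differences, 6 and 6 with opposite calls and 4 with unequal responses were called genes. In at least 1 line their treated and vehicle libraries did not overlap. The 4 with shared responses met the same overlap rule but were not called for the difference. Named without these conditions were up to 3 per list by adjusted p, genes nearest the level limit and the 3 best correlated with leading genes. The same held for JAK1, JAK2, FLT3, STAT3, SOCS3, MYC, CDKN1A and MKI67. Other genes named inside lists were chosen after their values were seen. Some genes that the rule chose are not reported here. Lists share some genes. The genes, lists and tests were chosen with earlier results of these data known. CDKN1A and JAK2 lay below the level limit.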

Additional observations from a re-analysis of the deposited data

Results flagged for a closer look

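Each result here stood out because the test of the difference between the lines passed its threshold. That test called 1125 genes higher and 785 lower in OVSAHO among 9898. Among genes with calls in opposite directions were TGM2 (2.60), IER3 (2.35), P2RY2 (2.03), LAMB3 (2.02) and SEMA7A (1.75), which rose in OVSAHO and fell in MDAH-2774, given with their log2 difference. Those with the reverse were THBS1 (-2.68), SORL1 (-2.47), PLXDC2 (-1.59), PIK3IP1 (-1.48), PRKCE (-1.35) and ZNF711 (-1.21). No explanation of these differences was tested. Groups of 3 libraries are too small for a check of single deviating samples.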

How the results depend on the processing

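All 1910 genes called for the difference kept their sign in all 22 alternative settings, and 1371 to 2181 genes were called. RLE scaling gave 1904 calls and shared 1868 of them with the 1910. Upper quartile scaling gave 1896 calls (788 higher, 1108 lower), of which 1573 were shared. Limma on log2(RPKM + 1) split 814 higher and 1118 lower, and on log2(RPKM + 0.1) 752 and 994. Calls of at least 1 in size were 91 (59 higher, 32 lower) with log2(RPKM + 1), a scale that compresses low levels. Limits of 1 and 10 CPM per line gave 2111 and 1743 calls, and 5 CPM in each group gave 1864. Without 1 library the calls were 1371 to 1949 (825 to 1110 higher, 546 to 839 lower), and those of at least 1 in size 175 to 209 (101 to 124 higher, 67 to 97 lower). Genes called in both lines were then 210 to 315 in the same and 139 to 226 in opposite directions, and responses numbered 1262 to 2115 in MDAH-2774 and 1172 to 1865 in OVSAHO. The median difference where OVSAHO vehicle was lower by more than 2 was 0.21 with replicate 3 held out and 0.19 with upper quartile scaling, and where it was higher by more than 2 it was -0.17 with replicate 1 held out and -0.28 with upper quartile scaling; the cause was not tested. With the replicate number as a block 1647 genes were called, and 1436 with a block within each line. STAT3 was not called in either (adjusted p = 0.07 and 0.11), nor was MAD2L1 (adjusted p = 0.075 and 0.061). Deviations of same-numbered libraries correlated at -0.06 to 0.07 and of others at -0.05 to 0.07, so no deviation shared by number was visible. With 3 libraries per group these values cannot show whether equal numbers mark a shared culture or batch. Low levels limit precision: the median SE was 0.235 in the lowest of 4 bins of vehicle level and 0.090 in the highest.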

Other observations

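The median length that the deposited table gives per gene was 3344 bases for genes whose difference was called higher in OVSAHO, 5160 bases for those called lower and 3892 bases for those not called. Median expression over both lines was 83.9, 46.5 and 38.8 CPM in the same order. Among the 185 genes with a difference of at least 1, the gap between the lines was smaller after treatment in 117, among them SORL1 and IER3, and larger in 68, among them LAMA3 and THBS1. The gap and the difference use the same libraries, and the share over all 9898 genes is not given. These counts are therefore descriptions and do not show that the lines converged.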
